A study of Mus musculus with 21 samples.

Results

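CD11b+ myeloid cells of the bone marrow (BM) were compared between terminally ill leukemic mice and both control genotypes of a mouse model of juvenile myelomonocytic leukemia (JMML). The comparison rests on 7 of the 21 libraries of the study, chosen by their labels: 3 libraries of S3 mice (animals 540, 815 and 640) and 4 control libraries, 2 labelled MxCre and 2 labelled Ptpn11D61Y/+. S3, stage 3, is the terminal stage of the disease in MxCre;Ptpn11D61Y/+ mice. In these animals poly I:C, an inducer of interferon, switches on a Cre recombinase under the interferon-responsive Mx promoter, and Cre then releases the D61Y mutant of Ptpn11 in the hematopoietic system. MxCre mice carry the Cre transgene and no mutant allele. Ptpn11D61Y/+ mice carry the mutant allele behind a Neo-Stop cassette and no Cre, so that the allele stays silent. The study describes them as having 1 functional Ptpn11 allele, like a heterozygous knock-out, whereas MxCre mice express Ptpn11 at normal levels. According to the methods of the study all genotypes received poly I:C. The labels give 1 animal number for each S3 library, but nothing in them says whether a control library stands for 1 animal or a pool. The ages and sexes of the mice are not given in the sources used here. CD11b+ cells were enriched with magnetic beads, RNA was sequenced from poly-A libraries, and the deposited values are read counts per gene.

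Ptpn11 encodes SHP2, a tyrosine phosphatase that relays signals from growth factor and cytokine receptors to RAS and ERK, and activating mutations of it are a common lesion in JMML. CD11b, encoded by Itgam, is an integrin subunit on the surface of monocytes, neutrophils, eosinophils and many macrophages, and also of basophils and NK cells. A CD11b+ marrow fraction is therefore a mixture in which neutrophils and their precursors usually dominate, and the disease is known for an expansion of the monocytic and granulocytic lineages. In bulk RNA of such a fraction, fewer cells of a type and less RNA per cell cannot be told apart.

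Total counts were 38436746 and 52369111 in MxCre libraries 1 and 2, 69421661 and 66286242 in Ptpn11D61Y/+ libraries 1 and 2, and 54184860, 34992610 and 73163041 in S3 animals 540, 815 and 640. Levels are given as log2 CPM, the log2 of a gene's count relative to the total of its library (CPM) after scaling by edgeR's TMM method, with a prior count of 2. The libraries were unlike one another within their groups. MxCre 1 had 14885 genes detected and S3 815 had 14761, against 17493 to 22865 in the other libraries. Of 10714 well-expressed genes, MxCre 1 had 190 and S3 815 had 59 at a count of 0, and no other library had more than 1. Macrophage markers summed to 18000 CPM in MxCre 1, with C1qa as the most abundant, against 503.6 to 629.1 CPM in the other controls and 1614, 1967 and 3285 CPM in S3 540, 815 and 640. In S3 640, markers of mature neutrophils summed to 12680 CPM, against 44300 to 67780 CPM in the other libraries.

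Transcripts of the sex chromosomes separated the libraries in another way. Xist, which is transcribed from the inactive X chromosome of female cells, had 2834 counts in MxCre 2, 2780 in S3 540 and 3154 in S3 815, and at most 9 in the other libraries. Eif2s3y, a gene of the Y chromosome, had 0 counts in S3 815 but 1472 in MxCre 2 and 691 in S3 540. MxCre 2 and S3 540 thus held transcripts of both sexes, and whether they hold RNA of more than 1 animal was not tested, although S3 540 carries 1 animal number in its label. S3 815 was the only library with Xist and no count of 4 Y-linked genes. The share of each sex was therefore not balanced between the groups, and its part in the results below was not tested. Itgam, the gene of the selection marker, was at 7.57 and 7.98 log2 CPM in MxCre, 9.29 and 9.62 in Ptpn11D61Y/+ and 9.05, 7.26 and 9.61 in S3 540, 815 and 640. Both MxCre libraries lay below both Ptpn11D61Y/+ libraries, and S3 spanned the range of the controls (S3 minus the 4 controls 0.025 log2 CPM, two-sided exact permutation test, p = 0.914).

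In the fit of the 7 libraries with edgeR's quasi-likelihood test, 0 of 15210 genes passed a Benjamini-Hochberg adjusted p under 0.05, the smallest adjusted p was 1, and 359 genes, 2.36%, had an unadjusted p under 0.05. Of these, 199 were higher in S3 (1.31% of genes tested) and 160 lower (1.05%). limma-voom called 0 genes as well, whereas DESeq2 called 42, of which 25 were higher and 17 lower in S3. By edgeR no gene is called changed here, and the genes below are described by the separation of the libraries. In 622 genes (4.09%) the 3 S3 libraries did not overlap the 4 controls, with 346 genes (2.27%) higher and 276 (1.81%) lower in every S3 library. For 3 against 4 exchangeable libraries, a gene separates in either direction at a rate of 0.0571. The share of 4.09% is not above that rate, so separation is used here only to describe genes. The gap between the nearest libraries was small in most of the 622 genes, with a median of 0.203 log2 CPM for the higher and 0.205 for the lower genes, and reached 1 log2 CPM in 45. When libraries were scaled by their total alone, 637 genes lay higher and 136 lower, and that scaling shifted the median over all tested genes from 0.032 to 0.26 (log2). The median quoted first, and 8095 of 15210 genes (53.2%) with a log2 fold change above 0 and 46.8% below it, is the background against which every list below is set.

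The 12 genes of highest rank among abundant genes that were higher in every S3 library were Smpdl3b, Oasl1, Ccl9, Mcpt8, Epx, Arhgef10l, Mcub, Ace, Tubb6, Prss34, Sirpb1a and Ptpro, with log2 fold changes from 1.21 to 4.29. They were ordered by unadjusted p, and their adjusted p was 1 each. Smpdl3b (ENSMUSG00000028885, minus strand of chromosome 4 of GRCm38, 132732966 to 132757252) encodes a phosphodiesterase anchored at the cell membrane that tempers Toll-like receptor signalling. Its level was 2.84 and 1.90 log2 CPM in MxCre, 1.37 and 1.57 in Ptpn11D61Y/+ and 4.66, 5.02 and 6.16 in S3 540, 815 and 640. Every S3 library stood at least 1.83 log2 CPM above every control, the log2 fold change was 3.40 (standard error 0.54), and DESeq2 called the gene. Ccl9, a chemokine of myeloid cells, was at 6.10 and 6.47 log2 CPM in MxCre, 6.25 and 6.44 in Ptpn11D61Y/+ and 7.73, 7.69 and 7.32 in S3. Here both groups were tight. The S3 mean was 7.58 log2 CPM ± 0.225 (SD, n = 3), and that of the controls 6.32 ± 0.173 (SD, n = 4). Sirpb1a, a member of the signal-regulatory protein family with close paralogs, was at 2.92, 1.28, 2.79 and 2.90 log2 CPM in the controls and at 4.19, 3.76 and 6.31 in S3 540, 815 and 640. S3 640 held the highest level of Smpdl3b, Oasl1, Epx, Arhgef10l, Ace, Tubb6 and Sirpb1a. Without it, the log2 fold change was 1.40 in place of 2.39 for Ace, 1.07 in place of 1.98 for Tubb6 and 1.39 in place of 2.61 for Sirpb1a.

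**Figure D1:**
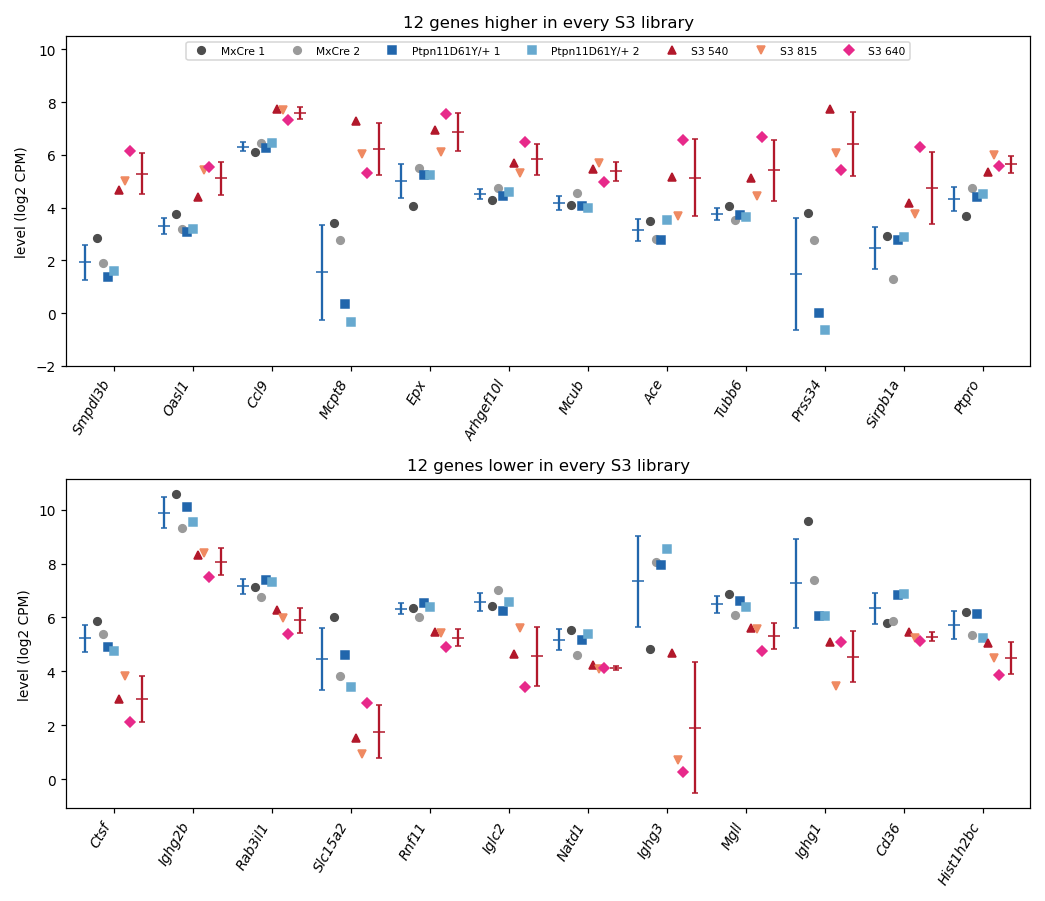
Level in log2 CPM (y axis) of the 12 higher and 12 lower named genes in each of the 7 BM CD11b+ libraries, with the mean and SD of the 4 controls at the left (blue) and of the 3 S3 libraries at the right (red) of each gene. Every S3 point lies on one side of every control point, since the genes were chosen for this; for Natd1 the 3 S3 libraries sit between 4.09 and 4.22, and for Ighg3 they spread from 0.28 to 4.70.

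Genes of basophils and mast cells had the highest median log2 fold change among all lists. Cpa3 and Cd200r3, with few counts in the controls, passed the filter on low counts through their S3 libraries, so their separation supports nothing by itself. Of 8 genes tested, 7 had a log2 fold change above 0, 6 were higher in every S3 library (background 2.27%) and 7 were higher at an unadjusted p under 0.05 (background 1.31%), with a median log2 fold change of 3.64. All of these values include Cpa3 and Cd200r3. Mcpt8 (ENSMUSG00000022157, minus strand of chromosome 14, 56082166 to 56085273), a serine protease of basophil granules, was at 3.40 and 2.76 log2 CPM in MxCre, 0.34 and -0.33 in Ptpn11D61Y/+ and 7.27, 6.03 and 5.33 in S3 540, 815 and 640. The control genotypes also differed from each other, and the lowest S3 library lay 1.93 log2 CPM above the highest control (log2 fold change 4.18, standard error 0.97). Prss34, another basophil protease, followed the same order of libraries, at 3.80 and 2.77 log2 CPM in MxCre, -0.0043 and -0.64 in Ptpn11D61Y/+ and 7.75, 6.05 and 5.44 in S3.

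Cpa3 (ENSMUSG00000001865, minus strand of chromosome 3, 20215620 to 20242181) encodes the carboxypeptidase of mast cell and basophil granules. It had 13 and 0 counts in MxCre, 10 and 12 in Ptpn11D61Y/+ and 636, 102 and 1017 in S3 540, 815 and 640. The control counts are close to the floor, so the log2 fold change of 5.55 (standard error 1.13) is uncertain in size. Since the gene passed the filter through its S3 libraries, its separation supports nothing by itself. Cd200r3, an activating receptor of basophils and mast cells, had 0, 0, 3 and 10 counts in the controls and 180, 29 and 385 in S3. At these control counts it was kept for testing only through its S3 libraries. Gata2, a transcription factor of both lineages and of blood stem cells, had 186, 63, 48 and 31 in the controls and 1001, 361 and 1659 in S3. The high-affinity IgE receptor genes were less clear. Fcer1a was higher in each S3 library, but with 13 counts in S3 815 against 26 and 28 in the Ptpn11D61Y/+ libraries, and Ms4a2 overlapped the controls. Hdc, the histidine decarboxylase of histamine synthesis, which other granulocytes transcribe too, was the member outside the pattern, at 9.18, 8.06, 7.95 and 7.97 log2 CPM in the controls and 8.64, 8.46 and 6.52 in S3. It was the most abundant member, and the summed level of the list overlapped between the groups. That sum was 612.3, 281.5, 251.8 and 252.9 CPM in the controls and 810.9, 500.5 and 208.3 CPM in S3 540, 815 and 640. In the fits that each left out 1 library, between 5 and 7 members had an unadjusted p under 0.05, and the median ran from 3.05 to 4.57. In those fits 1.35% to 5.91% of all genes had such a p, in either direction.

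Eosinophil genes were mixed. Epx, eosinophil peroxidase, was at 4.07 and 5.49 log2 CPM in MxCre, 5.23 and 5.25 in Ptpn11D61Y/+ and 6.93, 6.12 and 7.54 in S3 (log2 fold change 1.87, standard error 0.46). It was the 1 member of 9 that separated the groups (background 2.27%). Prg2, the major basic protein, was at 9.17, 10.10, 8.24 and 8.06 log2 CPM in the controls and 10.63, 11.19 and 9.32 in S3 and so overlapped. Siglecf was at 3.07, 2.0, 3.30 and 3.30 in the controls and 3.34, 1.62 and 2.56 in S3, and the eosinophil receptor gene Ccr3 had its highest level in MxCre 1, at 7.62 log2 CPM against 0.010 to 3.46 in the other libraries. Eosinophil genes as a list had a median of 0.38, with 6 of 9 above 0. Without S3 540 the median was 0.030, and without S3 640 it was 0.85 with 5 members higher in both remaining S3 libraries (5.07% of all genes in that fit).

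**Figure D2:**
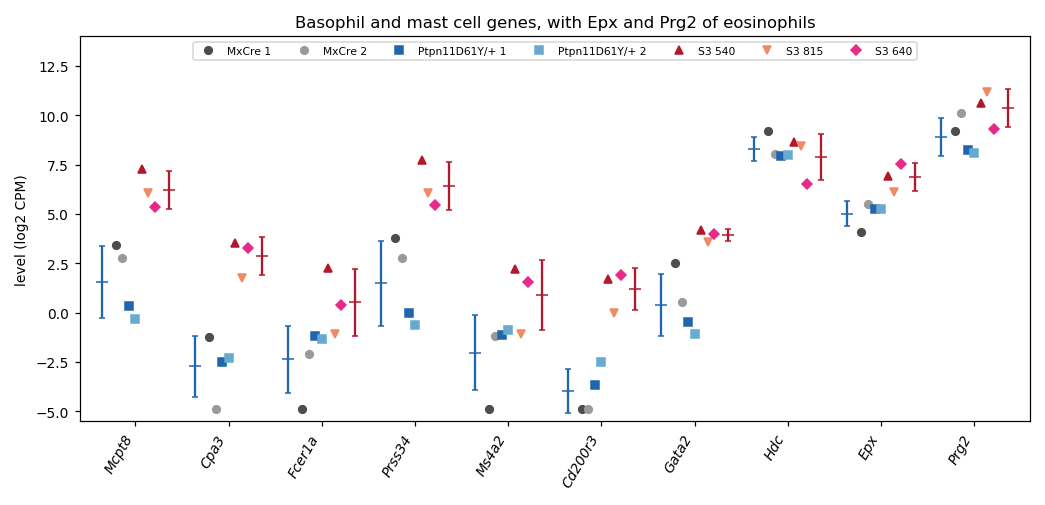
Level in log2 CPM (y axis) of the 8 basophil and mast cell genes, and of Epx and Prg2 of eosinophils, in each of the 7 BM CD11b+ libraries, with mean and SD of the 4 controls at the left (blue) and of the 3 S3 libraries at the right (red). Mcpt8, Cpa3, Prss34, Cd200r3 and Gata2 have every S3 point above every control point, whereas Hdc does not.

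Interferon-stimulated genes, which are transcribed when the factor ISGF3 or interferon regulatory factors bind a response element near their start site, lay on one side as a list. All 34 tested had a log2 fold change above 0 in the fit (background 53.2%), with a median of 1.27; 12 had an unadjusted p under 0.05 (background 1.31%), and 4 were higher in every S3 library (background 2.27%). Those 4 were Oasl1, an OAS-like protein that restrains interferon production, Ifih1, the RNA sensor MDA5, Gbp3, a guanylate-binding protein, and Ifit2, an inhibitor of viral translation. The 3 S3 animals did not share this pattern. In S3 815, 31 of the 34 genes lay above all 4 controls (21% of all genes did), and in S3 540 it was 27 of 34 (14% of all genes). In S3 640, 5 lay above all controls and 17 lay below all of them (29.1% and 21.6% of all genes). Summed over the list, the level was 1310, 1565, 1138 and 1315 CPM in the controls and 2373, 6575 and 613.2 CPM in S3 540, 815 and 640, with Bst2 as the most abundant member. Without S3 815, 2 members had an unadjusted p under 0.05 (2.6% of all genes in that fit, in either direction) and the median was 0.49. Without S3 640 there were 24 (2.16%, in either direction), with 25 separated upward (5.07% of all genes in that fit), and the median was 1.67.

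Promoters of these genes were read from RefSeq (GRCm38.p6), from 250 bases before to 50 bases after each start site, and 25 of the 34 genes were matched. The core letters of an interferon-stimulated response element, GAAA, any 2 bases and GAAA again, were searched on both strands, so that on the other strand they read TTTC, any 2 bases and TTTC. They were found in 16 of the 25, 64%, and in 1079 of all 27025 genes with a promoter, 3.99%; matches may overlap. Stretches of 4 members are shown, Gbp3 since its libraries did not overlap, Ifit1 and Ifit3 since they had an unadjusted p under 0.05, and Isg15 as a classical member, each 5′ to 3′ on the strand of the gene with the matches in capitals. Gbp3 lies on the plus strand (chr3:142559979-142560034), as do Ifit1 (chr19:34640765-34640833) and Ifit3 (chr19:34583353-34583436), and Isg15 on the minus strand (chr4:156200855-156200916).
Gbp3: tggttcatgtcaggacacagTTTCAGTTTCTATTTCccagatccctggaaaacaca
Ifit1: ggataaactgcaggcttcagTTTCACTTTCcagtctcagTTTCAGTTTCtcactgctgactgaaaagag
Ifit3: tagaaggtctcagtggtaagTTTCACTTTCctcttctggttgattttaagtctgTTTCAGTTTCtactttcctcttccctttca
Isg15: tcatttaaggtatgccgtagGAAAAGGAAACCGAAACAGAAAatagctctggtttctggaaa
Genes with these letters behaved in different ways across the S3 libraries. Gbp3 was at 3.13, 2.95, 3.20 and 3.70 log2 CPM in the controls and 4.23, 4.37 and 4.0 in S3 540, 815 and 640, so that all 3 were higher. Ifit1 was at 2.22, 3.55, 3.09 and 3.38 in the controls and 4.43, 6.94 and 2.69 in S3, and Isg15 at 5.37, 7.14, 6.76 and 6.91 in the controls and 8.34, 9.11 and 4.37 in S3. In both, S3 640 lay within or below the controls. Oasl1 and Ifit2 do not hold the letters in this window, and their levels were 3.77, 3.18, 3.07 and 3.19 against 4.40, 5.42 and 5.54 log2 CPM, and 1.67, 2.97, 3.10 and 3.24 against 3.84, 5.0 and 3.54. Oasl1 overlaps Gm13822 on the other strand, so part of its count may belong to that gene.

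**Figure D3:**
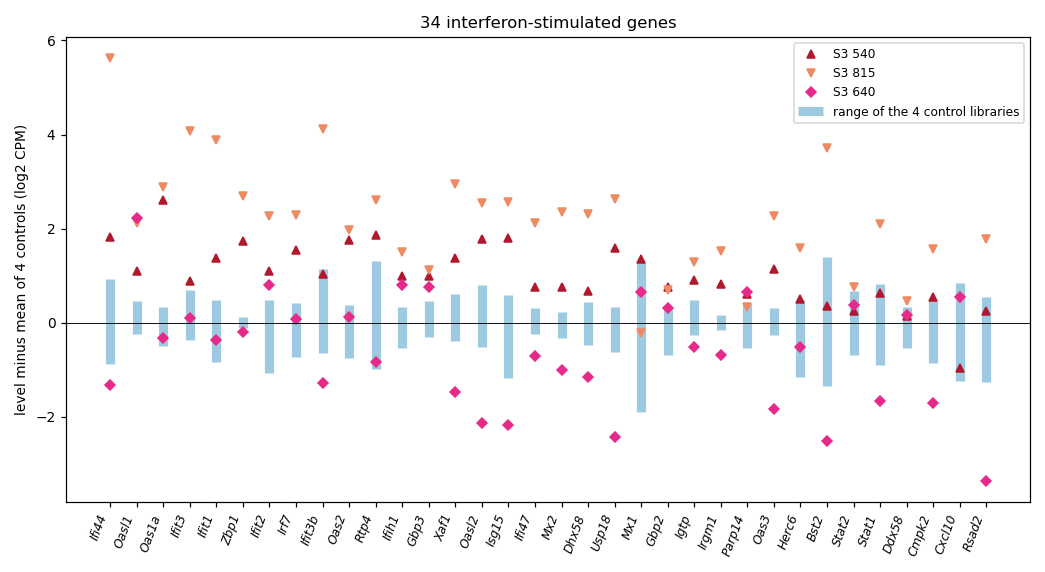
Level of 34 interferon-stimulated genes in the 3 S3 libraries, as the difference from the mean of the 4 controls in log2 CPM (y axis), with the range of the controls as a blue bar. S3 815 lies above the bar in 31 genes, S3 540 in 27 and S3 640 in 5, and S3 640 lies below it in 17.

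Of 22 monocyte genes tested, 19 had a log2 fold change above 0, with a median of 0.87. In every S3 library 5 were higher (background 2.27%), and 5 were higher at an unadjusted p under 0.05 (background 1.31%). Pld4 (ENSMUSG00000052160, plus strand of chromosome 12, 112760655 to 112768990), an endolysosomal nuclease, was at 7.72, 7.81, 7.73 and 7.79 log2 CPM in the controls and 8.57, 8.84 and 9.22 in S3. The 4 controls lay close together, with 7.76 ± 0.0454 log2 CPM (SD, n = 4) against 8.88 ± 0.325 (SD, n = 3). Cx3cr1, the fractalkine receptor of patrolling monocytes, was at 5.90, 5.59, 4.82 and 5.01 log2 CPM in the controls and 6.30, 7.68 and 6.53 in S3. Ms4a6c was at 3.25, 4.47, 4.86 and 5.39 in the controls and 5.78, 5.93 and 5.76 in S3. Ace, the angiotensin-converting enzyme, which marks mature monocytes, was at 3.51, 2.82, 2.77 and 3.52 in the controls and 5.15, 3.68 and 6.58 in S3, so S3 815 was only 0.16 log2 CPM above the highest control. Ccr2, the chemokine receptor that guides classical monocytes out of the marrow, was the other gene that separated the groups, by 0.027 log2 CPM. Ly6c2, Csf1r, Fn1 and Cd14 overlapped. Without MxCre 1, 12 members had an unadjusted p under 0.05 (5.91% of all genes in that fit, in either direction), 10 were higher in every S3 library (6.17%) and the median was 1.14. Without S3 640 the median was 0.52. Without MxCre 2 it was 0.65, with 4 members at an unadjusted p under 0.05 (2.03% of all genes in that fit, in either direction).

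Macrophage genes depended on 1 control library. Over all 7 libraries 13 of 16 had a log2 fold change below 0, with a median of -1.49, but without MxCre 1 the median was 1.42 and 13 of 16 lay above 0, with 7 higher in every S3 library (6.17% of all genes in that fit) and 6 at an unadjusted p under 0.05 (5.91%, in either direction). Timd4 and Slc40a1, the phosphatidylserine receptor of resident macrophages and the iron exporter ferroportin, were lower in every S3 library also against the other controls (background 1.81% over the 7 libraries). Slc40a1 was at 9.26 log2 CPM in MxCre 1, at 6.31, 6.39 and 6.31 in the other controls and at 6.11, 5.66 and 4.63 in S3. Among genes of MHC class II and dendritic cells, 3 of 16 were higher in every S3 library (background 2.27%), the chemokine receptor Xcr1, the cytokine receptor Flt3 and the transcription factor Zbtb46, all at low levels. Flt3 was at 1.68, 3.26, 3.03 and 2.94 log2 CPM in the controls and 3.42, 4.41 and 3.67 in S3.

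Genes lower in every S3 library included several of antibodies. The 12 genes of highest rank were Ctsf, Ighg2b, Rab3il1, Slc15a2, Rnf11, Iglc2, Natd1, Ighg3, Mgll, Ighg1, Cd36 and Hist1h2bc, with log2 fold changes from -4.58 to -1.05 and an adjusted p of 1 each. Constant-region genes of immunoglobulins were then counted as a list chosen after their values were seen, which supports nothing by itself: all 12 had a log2 fold change below 0, and 6 were lower in every S3 library (background 1.81%). Ighg2b was at 10.59, 9.31, 10.11 and 9.55 log2 CPM in the controls and 8.32, 8.39 and 7.49 in S3. Ighg3 was at 4.85, 8.05, 7.93 and 8.55 in the controls and 4.70, 0.73 and 0.28 in S3, with MxCre 1 just above S3 540. Ighg1 was at 9.56, 7.39, 6.07 and 6.06 in the controls and 5.10, 3.45 and 5.09 in S3. The log2 fold change of Ighg3 was -4.58, and -7.37 without S3 540, and that of Ighg1 was -3.33, and -1.91 without MxCre 1. Igkc, the kappa light chain constant gene and the most abundant of them, was at 13.37, 11.92, 11.96 and 12.04 in the controls and 10.40, 11.64 and 10.45 in S3. These genes have near-identical relatives whose reads the counting may have split, so single values are uncertain.

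Markers of B cells and plasma cells, the sources of antibody transcripts, overlapped between the groups over all 7 libraries. Of 12 B cell genes 11 had a log2 fold change below 0, with a median of -1.20. At an unadjusted p under 0.05, 1 was lower (background 1.05%), and 0 were lower in every S3 library (background 1.81%). Without MxCre 1, however, 6 were lower in every S3 library (6.63% of all genes in that fit), 6 had an unadjusted p under 0.05 (5.91%, in either direction) and the median was -1.50. Their summed level was 1261, 3653, 4432 and 7184 CPM in the controls and 1629, 2251 and 1204 CPM in S3, with Ighm as the most abundant. Of 7 plasma cell genes, added together with the constant genes, 5 lay below 0 and none separated the groups, but without S3 815 there were 4 that were lower in both remaining S3 libraries (3.58% of all genes in that fit). Jchain, the joining chain of secreted IgA and IgM, was at 10.80, 9.0, 7.99 and 8.48 log2 CPM in the controls and 6.70, 9.22 and 7.08 in S3, with S3 815 above 3 of the controls. The part of contaminating B or plasma cells in the antibody transcripts was not tested.

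The other lower genes had varied roles. Ctsf (ENSMUSG00000083282, plus strand of chromosome 19, 4855130 to 4860918), the lysosomal protease cathepsin F, was at 5.87 and 5.37 log2 CPM in MxCre, 4.91 and 4.77 in Ptpn11D61Y/+ and 2.96, 3.83 and 2.13 in S3. The nearest libraries were 0.94 log2 CPM apart (log2 fold change -2.17, standard error 0.51), and DESeq2 called the gene. Rab3il1, an exchange factor for RAB GTPases, was at 7.15, 6.75, 7.39 and 7.33 in the controls and 6.30, 5.99 and 5.40 in S3. Slc15a2, a peptide transporter, was at 6.01, 3.84, 4.6 and 3.41 in the controls and 1.52, 0.92 and 2.85 in S3. Both genes of lipid handling among them, Mgll, a monoglyceride lipase, and Cd36, a scavenger receptor that takes up fatty acids, separated by less than 0.5 log2 CPM, Cd36 with 5.79, 5.88, 6.82 and 6.86 in the controls and 5.47, 5.22 and 5.14 in S3.

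Immediate-early genes, which respond within minutes to growth factors and to stress such as cell isolation, had a log2 fold change below 0 in 19 of 24 members, with a median of -0.74. Jund and Btg2 had an unadjusted p under 0.05 and, together with Zfp36, were lower in every S3 library (background 1.05% lower at that p and 1.81% lower in every S3 library). Jund, a subunit of AP-1, was at 10.43, 9.76, 10.13 and 9.90 log2 CPM in the controls and 9.28, 9.06 and 8.38 in S3. For Zfp36, which encodes an RNA-binding protein that destabilizes cytokine transcripts, the nearest libraries were 0.032 log2 CPM apart. Summed over the list, MxCre 1 had 47070 CPM, the other controls 9856 to 13530 CPM and the S3 libraries 8963 to 9834 CPM. Without MxCre 1, the median was -0.21 and 1 member had an unadjusted p under 0.05 (5.91% of all genes in that fit, in either direction). Without S3 640 it was -1.32, with 24 of 24 below 0 and 6 lower in both remaining S3 libraries (5.25% of all genes in that fit), and without MxCre 2 it was -0.90, with 22 of 24 below 0 and 6 lower in every S3 library (3.5%). Targets of NF-kB had a median of -0.0082, with 12 of 26 above 0 and none that separated the groups, and their summed level was also highest in MxCre 1, at 15680 CPM. Without S3 640 the median was -0.86, with 24 of 26 below 0 and 4 at an unadjusted p under 0.05 (2.16% of all genes in that fit, in either direction), and without MxCre 1 it was 0.28.

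Genes of neutrophils and their granules differed between the S3 animals. Mature neutrophil genes had a log2 fold change below 0 in 19 of 20, with a median of -0.70, and 17 of the 20 lay below all controls in S3 640, 9 in S3 815 and 3 in S3 540. Of all genes, 21.6%, 23.2% and 10.1% lay below all controls in these libraries. Without MxCre 2, 9 of the 20 were lower in every S3 library (3.5% of all genes in that fit). The ferrireductase gene Steap4, at 3.70, 1.41, 1.84 and 2.81 log2 CPM in the controls and 1.12, 1.17 and 1.14 in S3, was the member that separated the groups (background 1.81%). Secondary granule genes such as Ltf, Camp and Ngp had a median of -0.31, and without S3 640 of 0.050. Primary granule genes, the proteases and peroxidase of promyelocytes, were above 0 in 8 of 10, with a median of 0.49, and without MxCre 2 the median was 0.99 with 5 members higher in every S3 library (4.2% of all genes in that fit). Among them Cst7, a cystatin, was higher in every S3 library (background 2.27%), at 2.47, 4.85, 4.57 and 4.25 log2 CPM in the controls and 5.22, 4.95 and 5.33 in S3.

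Ptpn11 itself (ENSMUSG00000043733, minus strand of chromosome 5, 121130533 to 121191397) was at 4.16 and 5.17 log2 CPM in MxCre, 5.13 and 5.40 in Ptpn11D61Y/+ and 5.65, 4.52 and 6.61 in S3 540, 815 and 640. S3 540 and 640 lay above the 4 controls and S3 815 below 3 of them. The log2 fold change was 0.80 (standard error 0.51, edgeR adjusted p = 1), and a two-sided exact permutation test of the levels gave p = 0.4, with 0.0571 as the smallest p that 3 against 4 libraries allow. Counts do not tell mutant from wild-type transcripts. Without S3 640 the log2 fold change was 0.16. In the SHP2 and RAS pathway, which links the phosphatase to ERK, 15 of 27 genes lay above and 12 below 0, with a median of 0.055, which was -0.16 without S3 640. Of 15 genes of ERK feedback and output, 8 were above 0, with a median of 0.079, which was -0.29 without S3 640, -0.13 without MxCre 2 and 0.54 without S3 815, where 4 members had an unadjusted p under 0.05 (2.6% of all genes in that fit, in either direction). Against MxCre alone it was 0.48. Ccnd1, cyclin D1, was at 1.58, 1.37, 1.90 and 2.69 log2 CPM in the controls and 3.23, 3.17 and 4.35 in S3 (log2 fold change 1.72, standard error 0.51). Spred2, which holds RAS signalling back, was at 1.60, 2.99, 2.68 and 2.79 in the controls and 3.06, 3.44 and 4.83 in S3. Both were higher in every S3 library, and 3 of the 15 were so at an unadjusted p under 0.05 (backgrounds 2.27% and 1.31%).

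The BCL-2 family decides on the mitochondrial pathway of apoptosis: anti-apoptotic members hold the effectors BAX and BAK in check, and BH3-only members antagonize them. Of 19 genes, 17 were tested and Bcl2l10 and Hrk had 0 counts in every library, which allows up to 3 counts in each. Among the 17, 7 had a log2 fold change above 0 and 10 below, and 1 separated the groups (background 4.09%). Without MxCre 1, where 12.8% of all genes separated, 4 anti-apoptotic genes were higher and 1 lower in every S3 library, and 1 BH3-only gene was higher. In that fit an unadjusted p under 0.05 was reached by 3 anti-apoptotic genes and 1 BH3-only gene in the higher direction and by 1 BH3-only gene in the lower (5.91% of all genes, in either direction). The gene that separated over all 7 libraries was Bcl2 (ENSMUSG00000057329, minus strand of chromosome 1, 106538178 to 106714274), at 2.5 and 3.78 log2 CPM in MxCre, 3.69 and 3.76 in Ptpn11D61Y/+ and 3.96, 4.25 and 4.61 in S3. The nearest libraries were 0.18 log2 CPM apart, MxCre 1 was the lowest library, and the log2 fold change was 0.78 (standard error 0.42, edgeR adjusted p = 1).

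Both genes of the anti-apoptotic proteins BCL-XL and MCL1 overlapped between the groups. Bcl2l1, which encodes BCL-XL, was at 7.06, 8.69, 8.66 and 8.43 log2 CPM in the controls and 7.77, 8.40 and 5.76 in S3 (log2 fold change -0.67, standard error 0.65, and -0.23 without S3 640 or -1.25 without S3 815). Its lowest level was that of S3 640. Erythroid markers were also lowest there, at a sum of 12420 CPM against 40690 to 190000 CPM in the other libraries, and their part in the level of Bcl2l1 was not tested. Mcl1 was at 10.60, 9.14, 9.5 and 9.35 in the controls and 9.32, 9.25 and 9.14 in S3 (log2 fold change -0.53, standard error 0.46, and -0.078 without MxCre 1). Apart from MxCre 1, every library lay between 9.14 and 9.5 log2 CPM. Bcl2a1d was at 3.94, 1.81, 1.61 and 0.94 in the controls and 3.72, 4.30 and 5.37 in S3, with MxCre 1 above S3 540. Its log2 fold change was 2.06 (standard error 0.78), and it was 3.17 without MxCre 1, where Bcl2a1a was at 3.34, and 1.48 without S3 640. It shares reads with the near-identical copies Bcl2a1a and Bcl2a1b, so the values of the 3 are uncertain. Of the BH3-only genes, 6 of 7 lay below 0, with a median of -0.18, and this direction changed with the libraries used. Without MxCre 1, 5 of 7 lay above 0, with a median of 0.070, and against Ptpn11D61Y/+ alone the median was 0.085. Without S3 815 the median was -0.47, and without S3 640 it was -0.12 with 4 of 7 below 0. Bmf, a sensor of cell detachment, was at 3.29, 3.94, 5.0 and 5.55 in the controls and 3.40, 2.72 and 4.15 in S3, and Pmaip1, which encodes NOXA, at 8.63, 5.59, 5.70 and 5.83 in the controls and 6.24, 6.09 and 6.99 in S3. Bax and Bak1 had log2 fold changes of 0.17 and 0.46 (standard errors 0.30 and 0.34) and overlapped.

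**Figure D4:**
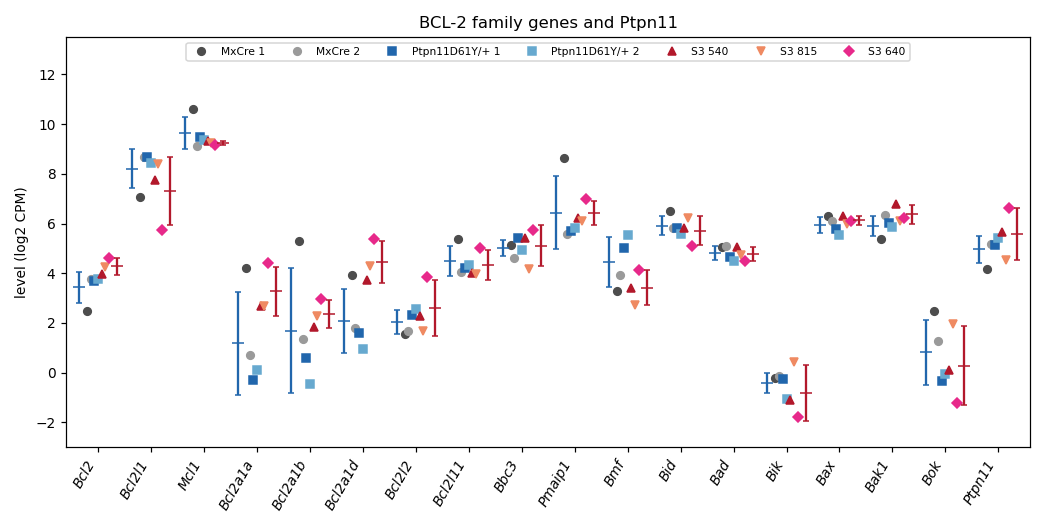
Level in log2 CPM (y axis) of the 17 tested BCL-2 family genes and of Ptpn11 in each of the 7 BM CD11b+ libraries, with mean and SD of the 4 controls at the left (blue) and of the 3 S3 libraries at the right (red). Bcl2 is the family member with every S3 point above every control point, by 0.18 log2 CPM, and Bcl2l1, Mcl1 and Ptpn11 overlap.

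Other lists of the apoptosis and growth pathways showed few separated members. Among caspases, the apoptosome and its inhibitors 19 of 22 lay above 0, with a median of 0.27 and 0 with an unadjusted p under 0.05. Of these 22, 1 was higher in every S3 library (background 2.27%), Casp12, at a level below that of 1 CPM. In p53 targets 10 of 14 were above 0, with a median of 0.20, and Perp alone separated the groups, higher in S3 (background 2.27%). Without S3 640 the median of p53 targets was -0.12 with 6 of 14 above 0. Receptors of hematopoietic growth factors had a median of 0.43, with Flt3 as the 1 separated member of 11 (background 2.27%), and the median was 0.20 without S3 640. The caspase list had a median of 0.045 without S3 640, with 11 of 22 above 0. Heat shock, T cell and NK cell lists had no member that separated the groups over all 7 libraries. T cell genes had a median of 0.61, which was -0.11 without S3 640, and without S3 540 there were 4 T cell and 2 NK cell genes higher in both remaining S3 libraries (4.78% of all genes in that fit) and 3 of 10 heat shock genes lower (4.45%). Genes of S phase and of G2 and M had medians of 0.036 and -0.12, with 0 of 45 and 0 of 53 members that separated the groups. Their sign depended on the libraries used. The medians were 0.39 and 0.33 against MxCre alone, -0.32 and -0.53 against Ptpn11D61Y/+ alone, and -0.31 and -0.48 without MxCre 1, where 7 and 6 members were lower in every S3 library (6.63% of all genes in that fit). They were -0.20 and -0.48 without S3 540, and 0.16 and 0.059 without S3 640.

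The same comparison in CD11b+ cells of the spleen, with 3 S3 and 4 control libraries, called 0 of 15726 genes and separated 566 genes higher (3.60%) and 401 lower (2.55%). By their labels the S3 spleen libraries come from the same 3 animals. The difference between the S3 effects in BM and spleen was tested as an interaction over the 14 libraries, in which 0 of 17011 genes passed an adjusted p under 0.05 (edgeR), 500 had an unadjusted p under 0.05 and DESeq2 called 23. No single gene is therefore called different between the tissues by edgeR, and the values are given side by side. Erythroid genes had log2 fold changes below 0 in 18 of 18 in BM, with a median of -1.01 and none separated, and a median of 3.82 in spleen with 11 separated upward. Hbb-bs, a beta-globin gene, was at 12.72, 15.41, 15.46 and 15.72 log2 CPM in BM controls and 14.12, 13.61 and 12.40 in BM of S3, against 9.30, 8.33, 10.55 and 8.67 in spleen controls and 12.27, 11.91 and 13.23 in spleen of S3. In marrow controls the globin level was high except in MxCre 1, and S3 640 was lowest in marrow and highest in spleen. Without MxCre 1, 11 of the 18 erythroid genes were lower in every S3 marrow library (6.63% of all genes in that fit), whereas without S3 640 the median was -0.50 with 15 of 18 below 0.

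S-phase and G2/M genes had medians of 1.12 and 1.33 in spleen, where they had 0.036 and -0.12 in BM, and NK cell genes -2.41 in spleen against 0.82 in BM. The NK cell value in BM rested on S3 640, without which the median was -0.083 and 5 of 11 lay above 0. Basophil and mast cell genes had a median of 0.88 in spleen with 0 of 8 separated, although Mcpt8 and Prss34 had spleen log2 fold changes of 3.25 and 3.93 (standard errors 0.99 and 1.02). Mcpt8 was at 1.66, -0.027, -0.59 and 2.81 log2 CPM in spleen controls and 5.16, 5.47 and 1.93 in spleen of S3, so S3 640 overlapped there. Of the 12 higher and 12 lower genes named above, 1 was also separated in the same direction in spleen, Sirpb1a. Of all genes tested in spleen, 3.60% separated higher and 2.55% lower. The spleen log2 fold change was above 0 in 6 of the 12 higher genes and below 0 in 6. It was below 0 in 8 of the 12 lower genes and above 0 in 4. In spleen Sirpb1a was at 5.90, 6.16, 5.74 and 6.70 log2 CPM in controls and 7.20, 7.52 and 6.76 in S3.

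**Figure D5:**
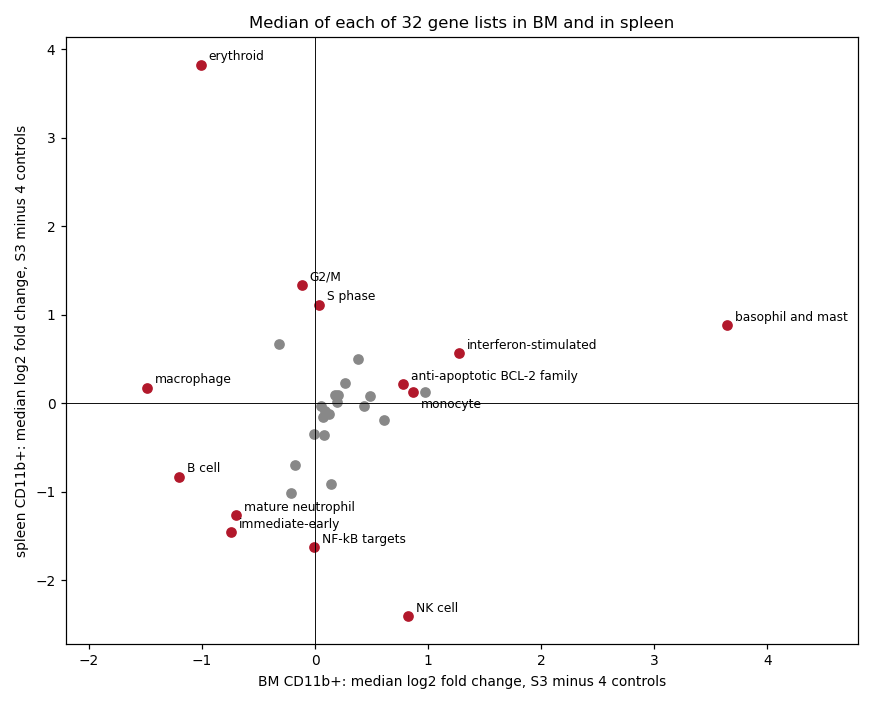
Median log2 fold change of S3 against 4 controls for each of 32 gene lists in BM CD11b+ cells (x axis) and in spleen CD11b+ cells (y axis), each point a list, with named lists in red. Basophil and mast cell genes lie farthest to the right at 3.64 in BM, and erythroid genes lie highest at 3.82 in spleen and below 0 in BM.

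The control genotypes were compared to see whether they form 1 group. Between Ptpn11D61Y/+ and MxCre libraries edgeR called 0 of 15210 genes, with 1213 at an unadjusted p under 0.05 and a smallest adjusted p of 0.552, and DESeq2 called 85. The count of 1213 depended on S3 libraries in the fit, which are outside this comparison. It was 685 without S3 540, 2408 without S3 815 and 2096 without S3 640. Leaving out a control library leaves 1 library in its genotype, so such counts are not given. In a fit of the same form, with 1 coefficient per genotype, 441 genes had an unadjusted p under 0.05 between S3 and the mean of both controls. Against MxCre alone 0 genes were called and 647 had an unadjusted p under 0.05, and against Ptpn11D61Y/+ alone 0 and 517; both comparisons share the S3 libraries. The basophil and mast cell median was 3.54 against MxCre and 4.78 against Ptpn11D61Y/+, that of interferon-stimulated genes 1.25 and 1.30, and that of monocyte genes 1.02 and 0.91. Other lists differed with the control genotype. The median of macrophage genes was -2.41 against MxCre and 1.06 against Ptpn11D61Y/+, that of the BCL-2 family -0.27 and 0.46, that of secondary granule genes 0.13 and -0.71, and that of erythroid genes -0.040 and -1.30. S-phase and G2/M genes, given above, turned in sign as well.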

How the data were processed

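CD11b+ cells of the BM, enriched on magnetic columns, were analysed in 7 libraries, and those of the spleen in 7 for comparison; 1 added fit used all 21 libraries. The authors trimmed reads with Trim Galore 0.6.5 and mapped them with STAR 2.5.3a to GRCm38 (mm10), after bcl2fastq 2.20.0.422 and FastQC 0.11.9, per the labels. The authors deposited raw counts per Ensembl gene, without normalization; the counting program, its annotation and its use of strand are not given in the sources used here, so genes that overlap another gene are uncertain. Symbols, positions and overlaps were read from a GRCm38 annotation.

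The main test was that of edgeR 4.0.16 under R 4.3.3. A filter on low counts (filterByExpr with S3 and control as groups, minimum count 10, minimum total 15) left 15210 genes with 99.94% of all counts. After TMM scaling, a quasi-likelihood model (robust option) compared S3 with control on 5 residual degrees of freedom, and a call needed an adjusted p (Benjamini-Hochberg) below 0.05. Each standard error is the estimate divided by the root of its F. Groups were called separated where every S3 library lay on one side of every control in TMM-scaled CPM. DESeq2 1.42.0 and limma-voom (limma 3.58.1), RLE factors, library size alone, other filters, single control genotypes, a fit of 21 libraries and leaving out each library were tried as alternatives. Exact permutation tests used SciPy 1.17.1. The code was tested on simulated data.

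The genes to be named were the BCL-2 family and Ptpn11, the 12 higher and 12 lower separated genes of smallest unadjusted p whose mean level reached 3 log2 CPM, with a symbol other than a clone name, up to 4 separated members of each list (otherwise its most abundant member), Itgam and genes of the sex chromosomes. Members and lists were chosen with earlier results of these data known; the constant-region and plasma cell lists, and other genes named from lists, were chosen after their values were seen. Of 19 erythroid genes, 18 were found by symbol. Lists of stem and progenitor, megakaryocyte, stroma, JAK-STAT, myeloid transcription factor and selection marker genes were also summarised, with medians of 0.97, 0.13, 0.14, 0.069, -0.010 and 0.085. These moved with single libraries, to 0.46 for stem and progenitor and -0.62 for megakaryocyte genes without S3 815, and to -1.51 for stroma, -0.11 for JAK-STAT, 0.15 for transcription factor and -0.36 for selection marker genes without S3 640. The methods of the study give 3 mice per genotype for CD11b+ cells of S3 and MxCre mice, whereas the labels used here hold 2 MxCre libraries. The labels number the animals of S3 but not those of the controls, so p-values measure the spread between these libraries, which may in part be technical. The authors deposited no comparison columns in these files.

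Replicate numbers could pair BM with spleen libraries. The labels give the S3 animals, and deviations from group means correlated at 0.0992, 0.44 and 0.329 for animals 540, 815 and 640, 0.0559 for MxCre and -0.198 for Ptpn11D61Y/+. Ptpn11D61Y/+ 1 had 1 count of Xist in BM but a level of 6.03 log2 CPM in spleen, so the BM and spleen libraries of this number did not match. Whether these control libraries share only a number, or labels were exchanged, was not tested.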

Additional observations from a re-analysis of the deposited data

Results flagged for a closer look

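Among the 4 controls, 66 sets of values were examined for a library far from the others (Dixon's test of the gap to the nearest library over the range, at the 95% level), and 14 were found. Chance gives about 5% in independent sets, but these share the 4 libraries and in part their genes. The count of 14 is therefore no test against chance. In 13 of the 14 sets MxCre 1 was the library apart, and the other controls are given as a range. Its summed level was 18000 CPM for macrophage genes (503.6 to 629.1), 47070 CPM for immediate-early genes (9856 to 13530), 15680 CPM for NF-kB targets (1332 to 2706), and 2745 CPM for ERK feedback and output (453.8 to 566.9). It was 3541 CPM for growth factor receptors (936.5 to 1247), 3635 CPM for JAK-STAT and SOCS genes (1172 to 1269), and 5363 CPM for myeloid transcription factors (1797 to 2134). For basophil and mast cell genes it was 612.3 CPM (251.8 to 281.5), with Hdc as the most abundant, for BH3-only genes 606.9 CPM (194.9 to 227.2) and for the whole BCL-2 family 2502 CPM (1348 to 1499). Single genes apart in MxCre 1 were Oasl1 at 3.77 log2 CPM (3.07 to 3.19), Ighg3 at 4.85 (7.93 to 8.55) and Bcl2 at 2.5 (3.69 to 3.78). Sirpb1a was apart in MxCre 2, at 1.28 log2 CPM (2.79 to 2.92).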

How the results depend on the processing

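Under every edgeR setting on the 7 libraries or fewer, and with limma-voom, 0 genes were called between S3 and the controls. DESeq2 called 42 of 14710 genes, among them 8 of the 24 named genes. Those 24 were chosen in these same libraries for separation and a small p, so their overlap with the calls supports nothing by itself. The fit of all 21 libraries called 5, all higher in S3 (Cpa3, F11r, Kcng2, Klrb1b and Adam23). The number of genes at an unadjusted p under 0.05, 359 over 7 libraries, ran over the fits without 1 library from 200 without Ptpn11D61Y/+ 1 to 895 without MxCre 1, with 224 without Ptpn11D61Y/+ 2; it was 953 with no filter on low counts, 1132 without MxCre 1 and S3 815 together, and 1226 in the fit of all 21 libraries. The number of separated genes was 622, and 45 with a gap of at least 1 log2 CPM. Leaving out 1 library, which makes separation easier by construction, gave 704 to 1937, with 1937 without MxCre 1, 1629 without S3 815, 1604 without S3 640, 1488 without S3 540 and 1167 without MxCre 2. Chosen after seeing the data, leaving out MxCre 1 and S3 815, the libraries with the fewest genes, gave 3546, and leaving out MxCre 2 and S3 540, with transcripts of both sexes, gave 2111, each with 0 called. For Ptpn11 the log2 fold change ran from 0.16 to 1.17 over the fits without 1 library. Some BCL-2 family genes changed sign, and the cause was not tested. Scaled by library size alone, Bcl2l11 was at 0.17 and Bad at 0.16; against MxCre alone Bax was at -0.063; against Ptpn11D61Y/+ alone Bcl2a1b was at 2.31, Bcl2l11 at 0.16, Pmaip1 at 0.73, Bid at 0.084, Bad at 0.21, Bik at 0.085 and Bok at 1.07. Over the fits without 1 library, Bcl2a1b ran from -1.45 to 1.82, Bcl2l11 from -0.60 to 0.25, Pmaip1 from -0.95 to 0.81, Bid from -0.47 to 0.076, Bad from -0.22 to 0.076, Bok from -1.73 to 0.41, Bik from -1.09 to 0.25, Bcl2l2 from -0.065 to 1.20 and Bbc3 from -0.12 to 0.53. No paired analysis was possible because S3 and control libraries share no replicate numbers. Between Ptpn11D61Y/+ and MxCre, which share only a number (correlation of deviations -0.0404), a replicate block gave 0 calls (885 genes at an unadjusted p under 0.05) and DESeq2 85. For the difference between BM and spleen, the replicate block gave 0 calls (366), the crossed pairing of the Ptpn11D61Y/+ libraries 0 (406), and DESeq2 23. Total counts of 34992610 to 73163041 per library limit genes of few counts, such as Cpa3 and Cd200r3 in the controls. MxCre 1 and S3 815, with the lowest totals, also had 190 and 59 of 10714 well-expressed genes at a count of 0.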
